A study of Mus musculus with 5 samples.

Results

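The first introns of protein-coding genes held 386 of the 8038 regions in the table of Pou4f1 CUT&Tag signal from E16.5 mouse retina. A region was taken when its midpoint lay over 1 kb from every transcript start in GENCODE M21, outside all exons, and between exon 1 and exon 2 of the transcript that spans most of the gene. Where genes overlapped, the gene with the longest body was used. The rule used position only. Another 913 regions lay in later introns by the same rule, and 5147 lay within 1 kb of a start. Of the 386 regions, 369 lay wholly inside the intron. They fell in 319 genes on 20 chromosomes, and their median length was 965 bp.

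All libraries came from the retinas of wild-type embryos at E16.5, with 4 retinas pooled in each sample, so a sample is a mixture of retinal cell types and several animals. CUT&Tag cuts and tags DNA at the places where an antibody sits in the nucleus, and the DNA released is sequenced. A rabbit anti-Pou4f1 antibody was used for 2 libraries and rabbit IgG, which has no target in the cell, for the other 2. A library made with a rabbit anti-H3K9AC antibody was not analysed here. The labels do not say whether replicates came from separate litters, so p-values measure only the spread between these libraries. The regions were called by the authors from enrichment in CUT&Tag, so signal above IgG was part of how the table was made.

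Pou4f1 (Brn3a) is a POU-homeodomain transcription factor that marks postmitotic retinal ganglion cells, the neurons that send their axons from the eye to the brain. POU factors hold DNA with a POU-specific domain and a homeodomain joined by a flexible linker, and Brn3-class proteins prefer AT-rich sites. First introns are often the longest introns of neuronal genes, and enhancers are often found in them.

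Sequences of the members that carried the POU motif in a gene of a fixed list are shown first, because the motif was more frequent at the region centres than in their surroundings. The motif searched was ATNAATAATT or ATNAATTATT on either strand. Each line gives 40 bases of GRCm38.p6 (mm10) from 5′ to 3′ on the strand named, with the motif in capitals. Where a site was also matched on the opposite strand 3 bases further on, the whole symmetric stretch of 13 bases is in capitals.
Efna5, chr17:62844655-62844694, plus strand: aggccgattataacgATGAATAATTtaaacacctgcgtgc
Grik1, chr16:88187559-88187598, plus strand: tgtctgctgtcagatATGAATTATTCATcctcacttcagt
Lsamp, chr16:40710220-40710259, plus strand: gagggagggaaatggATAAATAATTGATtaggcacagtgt
Dscam, chr16:97128965-97129004, minus strand: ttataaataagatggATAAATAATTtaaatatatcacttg
Sema5b, chr16:35614714-35614753, minus strand: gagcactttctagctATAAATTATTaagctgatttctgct
Ntm, chr9:29862446-29862485, plus strand: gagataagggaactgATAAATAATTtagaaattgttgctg
Foxp1, chr6:99468161-99468200, plus strand: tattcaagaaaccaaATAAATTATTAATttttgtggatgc

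The motif was found in the centre of 2 of the 10 members with the highest signal. The central 120 bases of 3 of the 8 others are printed on the plus strand for comparison, in lower case because none of them holds it.
Fam219a, chr4:41556725-41556844: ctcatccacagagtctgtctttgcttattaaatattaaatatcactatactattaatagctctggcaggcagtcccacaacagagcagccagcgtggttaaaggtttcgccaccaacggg
Eml1, chr12:108396371-108396490: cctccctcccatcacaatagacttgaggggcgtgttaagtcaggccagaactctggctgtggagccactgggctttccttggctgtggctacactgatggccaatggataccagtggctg
Hs3st2, chr7:121451244-121451363: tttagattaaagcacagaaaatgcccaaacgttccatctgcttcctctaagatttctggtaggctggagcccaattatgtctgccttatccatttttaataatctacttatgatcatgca

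The first-intron regions carried strong signal in both Pou4f1 libraries and little in the IgG libraries. The values are a mean coverage per region in arbitrary units, here called signal. The median over the 386 members was 191 in Pou4f1 replicate 1 and 229 in Pou4f1 replicate 2. It was 0 in both controls, the library named IgG and the library named Negative8. The library named IgG was at 0 in 195 members (50.5%) and Negative8 in 212 (54.9%). The highest member reached 1085 in replicate 1 and 1601 in replicate 2. In 99.98% to 100% of the regions of a library, signal times region length lay within 0.05 of a whole multiple of a step particular to that library, which would be the value of 1 base covered once. Where a control was above 0, its signal came to a median of 160 such steps, against 3653 in Pou4f1 replicate 1 and 3476 in replicate 2 over all members.

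**Figure D1:**
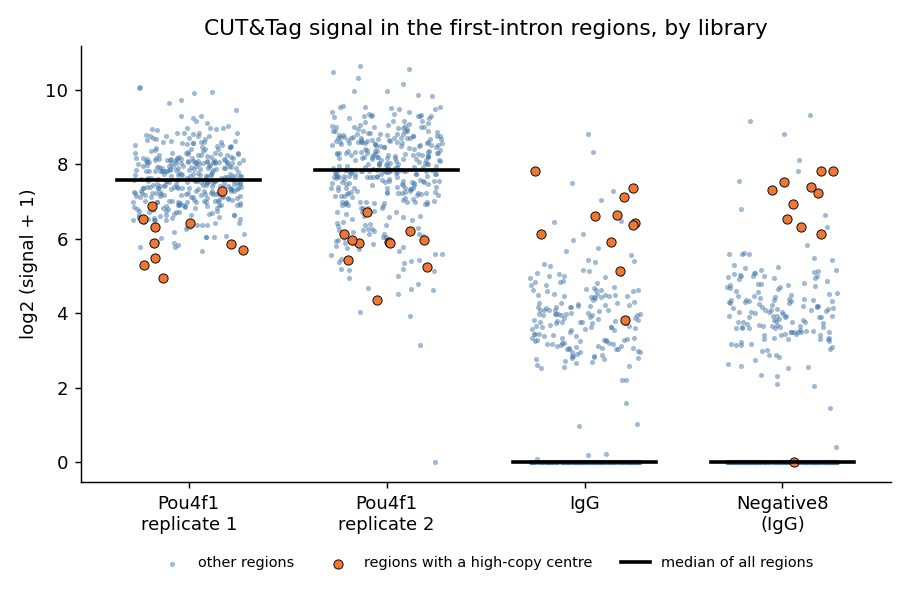
Each point is a first-intron region, its CUT&Tag signal on a log2(signal + 1) axis in each of the 4 libraries, and the line is the median. Most regions sit near a signal of 200 in both Pou4f1 libraries and at 0 in 1 or both IgG libraries. Of the 11 regions with a high-copy centre, in orange, 8 have both IgG libraries above both Pou4f1 libraries.

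On the log2(signal + 1) scale, 262 of the 386 members were called higher with Pou4f1 than with IgG (67.9%; limma, Benjamini-Hochberg adjusted p under 0.05). The background over the whole table was 64.8%, so the members' share was near it. Among later-intron regions 638 of 913 were called (69.9%), and the difference of first from later introns was -2.004 percentage points with a 95% Newcombe interval from -7.62 to 3.40. The median log2 difference of the members was 5.93, beside 5.22 over all regions. Both Pou4f1 libraries stood above both IgG libraries in 360 members (93.3%), against 96.5% of all regions.

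The calls followed the zeros in the controls. Of the 116 members at 0 in both IgG libraries 115 were called. Of the 175 members at 0 in 1 control only 83 were called, and of the 95 above 0 in both 64 were called. The members' shares were 99.1%, 47.4% and 67.4%, and over all regions the shares were 99.7%, 39.4% and 74.1%. The log2 difference of a region with zeros depends on the value of 1 added before the log. The count of calls also moved with the scale between libraries, which the sources do not give. With IgG multiplied by 2, 155 members were called (40.2%, against 36.7% of all regions). With every library scaled to the same column total 116 were called (30.1%, against 22.7% of all regions). Without Pou4f1 replicate 1 the members' median log2 difference was 6.09, against 5.06 over all regions. Without replicate 2 it was 5.80, against 5.38 over all regions.

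The 10 members with the highest signal in the lower of the 2 Pou4f1 replicates lay in genes of excitability, synapse and adhesion as well as in others. The strongest was in Cacna2d2, which encodes an auxiliary subunit of voltage-gated calcium channels. This region (chr9:107416297-107417956) had 1085 and 1275 with Pou4f1 against 21.6 and 25.2 in the controls, here and hereafter in the order replicate 1 then 2 and IgG then Negative8. It stood 17.5 kb from the start of the gene's transcript, in an intron of 25.8 kb, with a log2 difference of 5.60 ± 0.39 (SE; adjusted p = 0.0029, limma). Both controls were above 0 here, and the log2 difference was below those of other members of this group with less Pou4f1 signal.

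The region in Efna5, which encodes ephrin-A5, a repellent cue used in mapping retinal axons, had 1061 and 1131 with Pou4f1 and 0 and 17.5 in the controls. The log2 difference was 7.99 ± 1.70 (SE; adjusted p = 0.032, limma). It lay 36.6 kb from the gene's start and holds the motif printed above. A weaker region of the same intron, 10.2 kb from the start, had 218 and 230.1 with Pou4f1 and 0 in both controls. Both Efna5 regions were called higher.

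Eml1, which encodes a microtubule-associated protein, held a region with 967 and 1601 with Pou4f1 and 0 in both controls. Fam219a held one with 977 and 1416, again with both controls at 0. Hs3st2 encodes a heparan sulfate 3-O-sulfotransferase, and its region had 839 and 759 with both controls at 0. In these 3 members, whose sequence is printed above, both controls were at 0 and the log2 difference was between 9.64 and 10.28.

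Kcnq3 encodes a potassium channel subunit of the M-current. Its region had 800.3 and 1002 with Pou4f1, 17.1 in the library named IgG and 10.3 in Negative8. Rimbp2, whose product ties calcium channels to release sites, had 701 and 996 with both controls at 0. Otop2 encodes an otopetrin proton channel and shared its region with Ush1g, an annotated neighbour that overlaps it. The Otop2 region had 634 and 709.6 with both controls at 0. All 3 were called higher.

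Grik1, which encodes a kainate-type glutamate receptor subunit, had 604 and 672 with Pou4f1, 32.9 in the library named IgG and 0 in Negative8. The groups did not overlap, but with these uneven controls the region was not called (log2 difference 6.78 ± 2.04, SE; adjusted p = 0.0575, limma). Cdh10, a type II cadherin, completed the list with 576 and 1510.4 and both controls at 0. Among these 10, the ratio of replicate 2 to replicate 1 was highest for Cdh10, at 2.62.

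Few first introns held more than 1 region. Of the 319 genes, 272 held 1 member, 41 held 2, 4 held 3, and Grip1 held 6. The 14 members assigned to Gm20388 came from a gene model of 4435 kb that spans other genes. Of these 14, 7 lay in Gse1, 1 in Acsf3 and 1 in Galnt2, so they do not describe 1 intron of 1 ordinary gene. There were 7 pairs of neighbouring members under 1 kb apart.

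Grip1 encodes a scaffold protein that binds AMPA receptors. Its 6 regions lay 177 to 349 kb from the gene's start, in a first intron of 443 kb. The strongest had 330 and 449 with Pou4f1, 0 in the library named IgG and 19.6 in Negative8, and held the symmetric form of the motif. The weakest had 116 and 80.1 with Pou4f1 against 14.5 and 16.9 in the controls, and its log2 difference of 2.55 turned to -1.41 with equal column totals. Both Pou4f1 libraries stood above both controls in each of the 6, and 5 were called.

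Cdh10 held 3 regions between 62.5 and 71.0 kb from its start. Beside the strongest, a region with 496 and 936 and another with 223 and 425 lay 70.1 and 71.0 kb from the start. All 3 were called higher. Ntm and Lsamp encode cell adhesion proteins of the IgLON family. In the 551-kb first intron of Ntm, the region 101 kb from the start had 194 and 384 with Pou4f1 and the one at 95.8 kb had 148 and 212, and both were called. The third, 479 kb from the start, had 29.9 and 104 with Pou4f1 and 34.3 and 121 in the controls, so the groups overlapped there. Its centre was high-copy sequence.

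Ldlrad3, a membrane protein with LDL receptor class A domains, held 3 regions 19.6 to 38.8 kb from its start. Their lower Pou4f1 values ran from 171 to 338 and all 3 were called, although the outermost turned from 3.48 to -0.50 on the log2 scale with equal column totals. Igsf21, an immunoglobulin-domain protein of synapses, held 3 regions with Pou4f1 values from 114 to 301. Of these, 2 were called, and the other had 226 and 245 with Pou4f1 and 20.6 and 0 in the controls (log2 difference 5.67 ± 1.79, SE; adjusted p = 0.0619, limma).

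**Figure D2:**
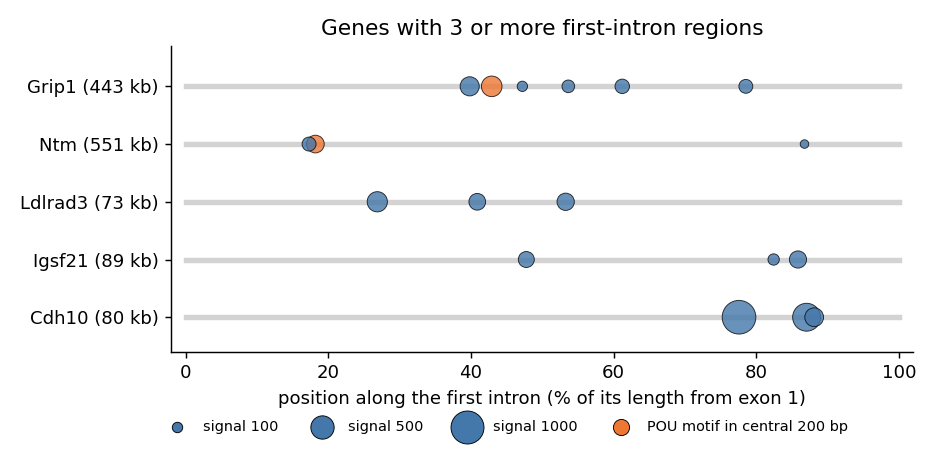
Each line is the first intron of a gene with 3 or more regions, from exon 1 on the left to exon 2 on the right, with its length in kb; circle area is the mean Pou4f1 signal and orange marks a POU motif in the central 200 bp. The regions of Cdh10 sit at 77.6% to 88.1% of the intron, those of Grip1 are spread from 39.8% to 78.5%, and Gm20388 is left out because its model spans other genes.

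First introns carried slightly more regions per length than later introns. The eligible sequence, over 1 kb from every start and outside exons, came to 221 Mb of first introns and 636 Mb of later introns. The density was 1.75 regions per Mb of first intron (95% exact Poisson interval 1.58 to 1.93) and 1.43 per Mb of later intron (1.34 to 1.53). The ratio was 1.22 (1.08 to 1.37). These intervals cover counting error only and treat regions as independent.

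The ratio was not the same at every distance from a start. It was 1.48 (0.976 to 2.23) at 1 to 2 kb, 0.947 (0.693 to 1.28) at 2 to 5 kb and 1.21 (0.993 to 1.47) at 5 to 20 kb. At 20 to 50 kb it was 1.40 (1.08 to 1.79), and over 50 kb it was 1.05 (0.700 to 1.54). Only the interval at 20 to 50 kb left out 1.

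**Figure D3:**
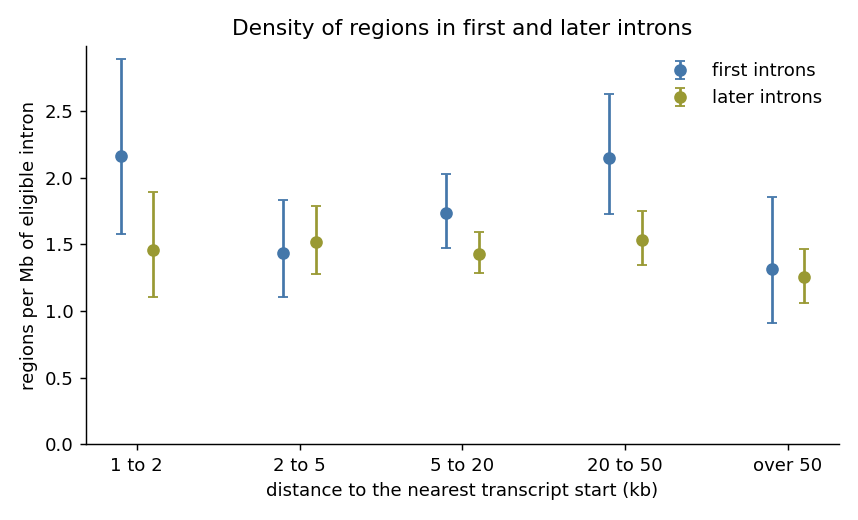
Regions per Mb of eligible intron, with 95% exact Poisson intervals, in bins of distance to the nearest transcript start for first introns and later introns. First introns reach 2.15 per Mb at 20 to 50 kb, where later introns have 1.53, and the intervals of the 2 classes overlap in every bin.

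Within the intron the members were spread from end to end. With the intron cut into 5 equal parts from exon 1 to exon 2, they numbered 77, 80, 78, 82 and 69. The median length of the intron, over members, was 72.5 kb, and the median distance to the nearest start of any transcript was 12.4 kb. The median distance to the start of the gene's own longest transcript was 27.1 kb. The member farthest from any start was in Lsamp. This region (chr16:40709395-40711042) lay 342 kb from the nearest start and 726 kb from that of the gene's longest transcript. It had 433 and 377 with Pou4f1 and 14.8 and 0 in the controls. The other two farthest were in Rora, a nuclear receptor, at 255 and 229 kb. The first had 246 and 749.8 with Pou4f1 and 0 and 19.96 in the controls, and the second had 159 and 151 with 11.8 and 0.

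At the 1 kb limit the nearest member inside was in Sema4d at 1011 bp, with 98.7 and 63.5 with Pou4f1 and 5.32 and 19.0 in the controls. The next, in Lurap1l at 1016 bp, had 206 and 174 with both controls at 0. Just outside, first-intron regions of Angptl6 at 1000 bp and of Gm20388 at 989 bp had 334 and 235, and 84.1 and 74.9, with Pou4f1.

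The genes with a first-intron member often had a region at the start as well. Of the 319 genes, 134 (42.0%) had a region within 1 kb of a start. Of the 497 genes with regions in later introns and none in the first, 183 did (36.8%), a difference of 5.19 percentage points (95% Newcombe interval -1.65 to 12.04). The share among the 13581 genes with eligible first intron was 25.2%. The median first intron was 63.3 kb in the 319 genes, 17.3 kb in the 497 and 6.18 kb in the 13581. The part of intron length in these shares was not tested.

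The POU motif was concentrated at the centre of the members. It was present in the central 200 bp of 45 members (11.7%, with a 95% exact binomial interval of 8.63 to 15.3). In equal windows centred 2 kb away on each side it was present in 8 of 772 (1.04%). On the side of lower coordinates 45 members held the motif at the centre only and 6 in the flank only (two-sided exact binomial test, adjusted p = 1.83e-08). On the other side the numbers were 45 and 2 (adjusted p = 3.21e-11, the same exact test). Members close to each other share some sequence context, and the test treats them as independent.

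The central motif was present in 114 of 913 later-intron regions (12.5%), a difference of first from later introns of -0.828 percentage points (95% Newcombe interval -4.48 to 3.27). It was present in 0.680% of regions near a start and in 4.41% of all regions on chromosomes. Over the whole length of the region, 109 members held 149 sites. Of these sites, 65 lay within 100 bp of the centre. On the strand of the gene there were 76 of the 149 sites. A symmetric stretch was counted as 1 site on each strand, so this share was partly even by construction. A preferred direction was not tested. At the variable position 3 of the motif, A was found in 49 sites, G in 41, T in 39 and C in 20.

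**Figure D4:**
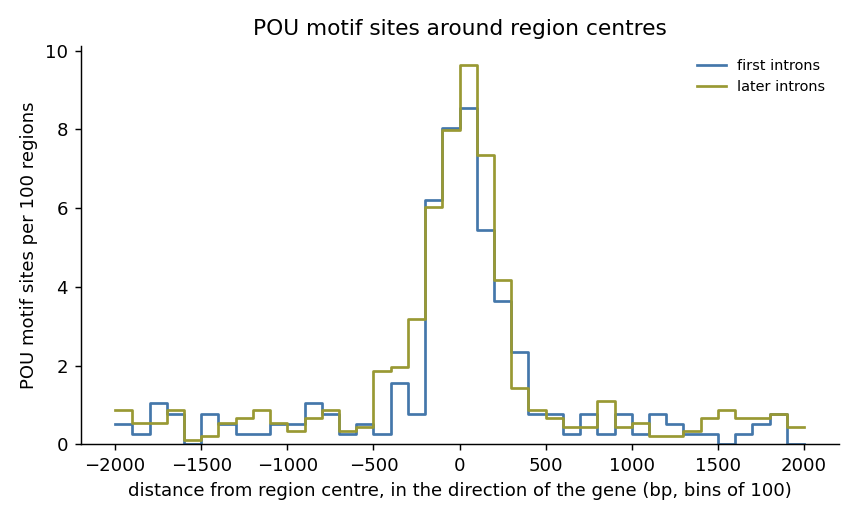
POU motif sites per 100 regions in bins of 100 bp from the region centre, with the direction of the gene to the right, for first-intron and later-intron regions. In first introns the 2 central bins reach 8.03 and 8.55 sites per 100 regions, and beyond 500 bp to either side no bin passes 1.04.

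Many central sites were read on both strands. A motif followed 3 bases later by its match on the other strand makes a symmetric stretch, ATNAATAATTNAT or ATNAATTATTNAT. Of 70 places with the motif within 150 bp of a member's centre, 23 were symmetric (32.9%). Of 51 places 500 to 2000 bp from the centre, 5 were (9.80%). The difference was 23.1 percentage points (95% Newcombe interval 8.15 to 35.9). In later-intron regions the shares were 57 of 181 places (31.5%) and 11 of 143 (7.69%). This count was made after the sites had been looked at, so it is given without a test.

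The symmetric stretch lay in the central 200 bp of 14 members. By the lower Pou4f1 value the strongest were in Grik1, Lsamp and Grip1, described above. The adaptor protein gene Dok5 held 2 of the 14, 2.01 and 48.8 kb from its start, and their signal was 269 and 226, and 161 and 187, with Pou4f1. The members with the symmetric stretch were not those of the highest median signal. The median in Pou4f1 replicate 1 was 196 in the 14 members with it and 247 in the 31 with a motif that was not symmetric. It was 204 in the 78 with a site 1 base away from the motif and 178 in the 263 with neither.

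The share of members with the motif was lowest among those of lowest signal. In 5 groups of equal size by mean Pou4f1 signal it was 3.85%, 11.7%, 10.4%, 14.3% and 18.2% from the lowest to the highest. By replicate 1 alone it was 2.56%, 13.0%, 13.0%, 16.9% and 13.0%. By replicate 2 alone it was 2.56%, 13.0%, 15.6%, 9.09% and 18.2%, so above the lowest group the order was not steady. In later introns the share by mean signal went from 3.28% in the lowest group to 23.6% in the highest. The members' lowest group by mean signal had the most GC (median 54.0%, against 46.9% in the highest), and it held all 11 members with a high-copy centre. The part of GC in this order was not tested. By GC content itself, the share was 17.9% in the group with the least GC and 1.30% in the group with the most. That last group held 10 of the 11 members with a high-copy centre. Members 1 to 2 kb from a start held the motif in 1 of 45, and those farther out in 11.1% to 15.2% of each distance bin.

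Other motifs were less particular to the centres. The E-box CAGCTG, which basic helix-loop-helix factors bind, was in 16.1% of the members' centres and 9.33% of the flanks. The E-box CAGATG was in 19.9% and 17.9%, the Onecut core ATCAAT in 10.1% and 6.99%, and TAATTA, a homeodomain core, in 7.51% and 5.44%. TAATTA lies inside the POU motif where that has T at positions 3 and 7. ATCAAT lies inside it where position 3 is C, as in 20 of the 149 sites in the members. The octamer ATGCAAAT, the classic site of Oct factors, was in 1.04% of centres and 1.55% of flanks. The Sp core GGGCGG was in 6.99% of members but in 53.8% of regions within 1 kb of a start.

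Ganglion cell transcription factor genes held 2 members. The list had 44 genes with an eligible first intron, and 2 of them (4.55%) held 1 member each. Among all 13581 eligible genes 2.35% held a member. That share is also the background for the gene counts of the lists below. Foxp1, a forkhead factor, had 138 and 75.7 with Pou4f1 and 0 in both controls (log2 difference 6.69 ± 0.51, SE; adjusted p = 0.00336, limma). Its region lay 52.9 kb from the start and holds the symmetric stretch. Irx4, an Iroquois homeobox gene, had 78.4 and 15.5 with Pou4f1 and 0 and 11.3 in the controls, and was not called (adjusted p = 0.147, limma). The 19 genes that regulate other retinal cell types held 0 members. The eligible first introns came to 1.353 Mb in the first list and 0.382 Mb in the second. The density of 1.48 per Mb in the first list (0.179 to 5.34) cannot be told from the 1.75 of all genes at this number of regions. The same holds for the 0 per Mb of the second list (0 to 9.66).

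Adhesion genes held the most members of any list, 27 regions in 18 of 75 genes. They also have long first introns, with a median of 76.1 kb against 6.18 kb for all eligible genes. Per length the density was 2.66 per Mb (1.75 to 3.87). Of the 27 regions, 22 were called higher (64.8% over all regions) and 26 had both Pou4f1 libraries above both controls (96.5% over all regions). Dscam, an immunoglobulin-domain protein of neurite self-avoidance, held 2 regions. The one with the motif printed above had 291 and 512 with Pou4f1 and the other had 137 and 316, with both controls at 0 in each. Ncam1, the neural cell adhesion molecule, held a region with 402 and 430.3 and another with 177 and 104. Sdk1 and Sdk2, the sidekick proteins of laminar targeting, and Nfasc, of the axon initial segment, also held members. In Sdk2 1 region had 349.9 and 509 and the other 91.1 and 35.3, and the weaker was not called.

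Voltage-gated channel genes held 12 members in 10 of 70 genes (2.80 per Mb, 1.45 to 4.90), and 10 of the 12 were called higher, against 64.8% over all regions. Besides Cacna2d2 and Kcnq3 they included calcium channel subunits and potassium channel partners. The list took in the Cacng genes by name, and the counts above include Cacng2, Cacng3 and Cacng4. Kcnip4, a partner of Kv4 channels, had 501 and 907 with Pou4f1 and both controls at 0. Cacng4, a regulatory subunit of AMPA receptors, had 495 and 655 with 11.3 and 0 in the controls. Cacna1a, the pore of P/Q-type channels, held a region with 407 and 522 and another with 163 and 247. Kcnip1, another Kv4 partner, held a region with 259.6 and 516 that was not called (0 and 38.1 in the controls) and one with 356 and 396 that was. In the whole region, but not the central 200 bp, 7 of the 12 held the POU motif. None held it in the centre. Over all members 28.2% held it in the whole region and 11.7% in the centre.

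Synaptic release genes held 8 members in 7 of 43 genes. Their 1.22 Mb of eligible first intron gave 6.56 regions per Mb (2.83 to 12.9), the highest of the lists and the only list whose interval lay wholly above that of all genes. All 8 were called higher, against 64.8% over all regions, and with 8 regions nothing particular to the list is read from this. Rims3, a Rim family member, had 522 and 478 with both controls at 0, and Syt13, a synaptotagmin, had 379.9 and 479 with both at 0. Sv2c, a synaptic vesicle glycoprotein, had 266 and 257, and Erc2, an active zone protein, had 289 and 402. Rimbp2 held a second, weaker region with 229 and 447 beside the strong one, at 50.2 and 49.1 kb from the start. The interval above counts these neighbours as independent. None of the 8 held the POU motif at any place in the region, where 28.2% of all members did.

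Axon guidance genes held 8 members in 6 of 74 genes (2.74 per Mb, 1.18 to 5.40), 7 of them called, where 64.8% of all regions were called. The same background holds for the 2 lists that follow. Sema5b, a semaphorin that repels retinal axons, held 2 regions. The region 51.3 kb from its start had 549 and 639 with both controls at 0, and the one at 73.3 kb, with the motif printed above, had 276 and 229. Epha3, an ephrin receptor, had 195 and 124, and Unc5c, a netrin receptor, had 149 and 58.0. Transmitter receptor genes held 4 members in 3 of 40 genes, of which 1, in the GABA-B receptor gene Gabbr2, was called. Neuronal RNA-binding genes held 3 members in 3 of 13 genes, in Rbfox3, Celf2 and Celf4, all called.

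**Figure D5:**
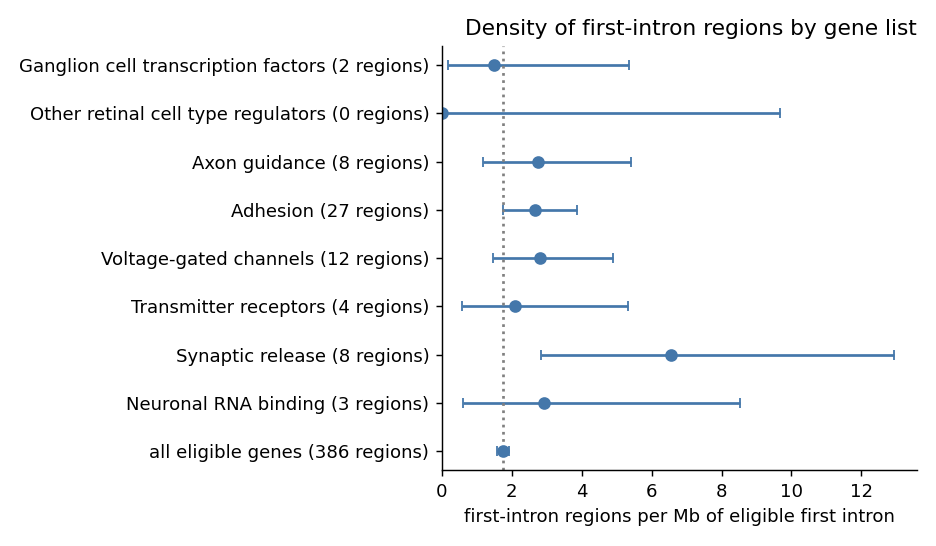
First-intron regions per Mb of eligible first intron for each gene list, with 95% exact Poisson intervals and the number of regions; the dotted line is the density over all eligible genes. Synaptic release genes stand highest at 6.56 per Mb. The interval of adhesion genes starts at 1.755, just above the line at 1.747, and those of the other lists start lower.

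The 2 Pou4f1 libraries ranked the members alike but not equally. Across the 386 regions, which share these libraries and differ in length and GC content, Pearson's r between replicates was 0.824 and Spearman's rho 0.789. Replicate 2 was higher in 245 members (63.5%), with a median ratio of replicate 2 to replicate 1 of 1.16. In later introns the ratio was 1.20, and within 1 kb of a start it was 0.701. With 1 library per replicate this has no test. The ratio moved with GC content. It was 1.28 in the group of members with the least GC and 0.933 in the group with the most. The group with the most GC held 10 of the 11 members with a high-copy centre, whose own median ratio was 0.746. The part of GC in the gap to regions at starts was not tested.

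A few members differed widely between the 2 Pou4f1 replicates. The region of Dclk2, a doublecortin-like kinase, had 628 in Pou4f1 replicate 1 and 34.9 in replicate 2, with 445 in the library named IgG and 0 in Negative8. Dcstamp, known from cell fusion in osteoclasts, had 64.3 and 0 with Pou4f1 and 0 in both controls, and was the only member at 0 in a Pou4f1 library. Baz2b, a bromodomain protein, had 116 and 14.3 with Pou4f1, 46.7 in the library named IgG and 575 in Negative8. In the other direction Hpcal1, a neuronal calcium sensor, had 90.4 in replicate 1 and 317 in replicate 2. Both values stood above its controls of 7.85 and 9.16. It was called higher (log2 difference 4.17 ± 0.81, SE; adjusted p = 0.0267, limma).

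Signal with IgG reached or passed that with Pou4f1 in a small group. In 9 members (2.33%) both IgG libraries stood above both Pou4f1 libraries, against 2.74% of later-intron regions and 1.46% of all regions. In 8 of the 9 the centre was high-copy sequence, taken here as at least 90% lower case in the central 200 bp of the reference. There were 11 such members in all, in Gulp1, Asic4, Fgd4, Fgf12, Fut9, Sorcs2, Kctd8, Ntm and Eda and 2 in Gm5592. Their median signal was 57.8 and 59.2 with Pou4f1, 85.0 in the library named IgG and 148 in Negative8. None of the 11 was called higher, and Fgd4 alone had both Pou4f1 values above both controls. Later introns had 24 such centres in 913 regions, and the share in first introns differed from theirs by 0.221 percentage points (95% Newcombe interval -1.55 to 2.56).

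The ninth was in Zfand3, which encodes a zinc finger protein, and was the single member called lower in Pou4f1 (the background of such calls was 0.224%). Its region (chr17:30083053-30084185) had 68.9 and 34.0 with Pou4f1, 323 in the library named IgG and 641 in Negative8. The log2 difference was -3.21 ± 0.67 (SE; adjusted p = 0.0306, limma), and its centre was not high-copy.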

How the data were processed

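CUT&Tag libraries of pooled E16.5 mouse retinas were compared between Pou4f1 (n = 2) and rabbit IgG (n = 2). The authors trimmed and masked the reads, aligned them to mm10 with Bowtie2 2.4.5 and called regions with SEACR. They deposited a coverage signal per region and library, not read counts. Its scaling and the library depths are not stated in the sources. The Pou4f1 columns carry replicate numbers and the IgG ones do not. The column Negative8 was taken as IgG, the negative control among the titles. Starts are counted from 0 in the deposited table and from 1 here.

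The test was limma 3.58.1 (R 4.3.3) on log2(signal + 1) over all 8038 regions, unscaled and two-sided, with Benjamini-Hochberg adjustment and a threshold of 0.05. The fit was tested on simulated data. Motifs were searched in GRCm38.p6 with Python 3.11.15 and pysam 0.24.0, and intervals came from scipy 1.17.1 and statsmodels 0.14.6. Regions without chromosome placement (10) were not annotated. Lower case in the reference was taken as high-copy sequence, and its masking tool is not stated.

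The members, gene lists and tests were chosen with earlier results of these data known. Regions were named if among the 10 highest by the lower Pou4f1 value, in a gene with 3 or more members, carrying the central POU motif in a listed gene, in a ganglion cell transcription factor gene, called lower or among the 3 smallest differences, among the 3 farthest from a start, or among the 3 largest replicate ratios each way. Other members of the lists, and those with a high-copy centre or a symmetric stretch, were named after their values were seen. The lists were ganglion cell transcription factors, other retinal cell type regulators, axon guidance, adhesion, voltage-gated channels, transmitter receptors, synaptic release and neuronal RNA binding. Alternatives covered the pseudocount, scale, filters, replicates left out, the distance limit and the motif window.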

Additional observations from a re-analysis of the deposited data

How the results depend on the processing

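No paired analysis was possible because the IgG columns carry no replicate numbers. The members called higher numbered 262 in the reported fit, 155 with IgG multiplied by 2 and 132 with IgG multiplied by 4. They numbered 116 with equal column totals and 172 with a pseudocount of 0.1. In these 4 settings the members' shares were 40.2%, 34.2%, 30.1% and 44.6%, against 36.7%, 26.8%, 22.7% and 43.4% of all regions. Every call under these 4 settings was among the 262. With a pseudocount of 10, 351 members were called higher (90.9%, against 92.6% of all regions). With a trended spread 269 were called higher (69.7%, against 66.4% of all regions). Leaving out 1 library gave 139 to 362. The members called lower numbered 1, and became 2, 5 and 13 with IgG multiplied by 2 or 4 and with equal column totals, 2 with a pseudocount of 10, 2 with a trended spread, and 0 to 8 with 1 library left out. The median log2 difference of 5.93 became 4.96 with IgG multiplied by 4, 3.52 with equal column totals, 7.63 with a pseudocount of 0.1 and 3.96 with one of 10. Filters on length and on summed signal left 263 and 262 calls (68.1% and 67.9%, against 64.9% and 64.8% of all regions). Named regions changed sign with equal column totals in 2 regions of Gm20388 (-0.92 and -0.42), Grip1 (-1.41) and Ldlrad3 (-0.50). With 1 library left out, the Dclk2 difference ran from -1.57 (without Negative8) to 7.23 and that of the outer Ntm region from -1.10 to 0.69, with 0.68 without Pou4f1 replicate 1. Of the 41 named regions called higher or lower, 19, 22, 25 and 17 lost their call with IgG multiplied by 2 or 4, equal column totals and a pseudocount of 0.1, and 22 and 21 without Pou4f1 replicates 1 and 2. The members numbered 466 with a limit of 500 bp from a start, 322 with 3000 bp and 535 with the first intron of any coding transcript. The density ratio of 1.22 became 1.38 with the 500 bp limit. The excess of the POU motif over the flanks and its difference from later introns kept their direction and side in central windows of 100 and 400 bp and at 3000 bp. Added after the data were seen, leaving out Gm20388 gave 251 calls, and leaving out high-copy centres gave 262 of 375. The causes of these changes were not tested. The controls are at 0 in 50.5% and 54.9% of members, and whether depth accounts for these zeros was not tested.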
